A study of Mus musculus with 15 samples.

Results

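The interleukin-1 (IL-1) family and the inflammasome were examined through 10 genes, Il1a, Il1b, Il1rn, Il1r1, Il1rap, Il18, Il33, Nlrp3, Casp1 and Pycard, chosen by symbol from the 24411 genes counted in mouse liver. Gene expression had been measured by poly(A) RNA sequencing of whole liver in 15 libraries. Of these, 6 were labelled LATS KO (LATS_KO), 5 were labelled Yap OE, for overexpression of Yap (YAP_OE), and 4 were labelled TdTomato (a red fluorescent protein) and served as controls, which the design text calls wild type. The title of the study names inflammatory monocytes and the cell proliferation that YAP induces. The labels give no age, time, strain, vector or promoter, and do not say which cells carried the change. Nothing in them states that replicate libraries are different mice, and p-values therefore reflect library-to-library spread alone, which may be technical. The extraction text describes mice of another design that does not match the titles, and nothing was taken from it.

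IL-1α (Il1a) and IL-1β (Il1b) bind the receptor IL-1R1 (Il1r1), which signals only after the accessory protein encoded by Il1rap has joined the complex, while the antagonist encoded by Il1rn occupies the receptor without signalling. IL-33 is held in the nucleus and is released by damaged cells, and its receptor also needs the accessory protein. IL-1β and IL-18 are made as inactive precursors that caspase-1 (Casp1) cuts inside the inflammasome, a complex that the sensor NLRP3 and the adaptor ASC (Pycard) build in myeloid cells. LATS1 and LATS2 are kinases that hold the transcriptional coactivator YAP in check, and YAP reaches DNA through TEAD factors.

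Depth was between 6166680 and 28225360 counts in genes per library. LATS_KO 3 and TdTomato 1 consisted mostly of unmapped reads (89.9% and 78.5%, where no other library exceeded 16.7%). They held counts for 9710 and 8501 genes, fewer than the 13372 or more of every other library, and they supply many of the zeros given below. Yap1 rose in YAP_OE by 0.82 ± 0.17 (SE) on the log2 scale (adjusted p = 0.0043, edgeR). Lats1 did not pass the test in LATS_KO (log2 fold change −0.94 ± 1.00, adjusted p = 0.62). Lats2 averaged 21.0 ± 12.0 CPM in LATS_KO (SD, n = 6) and 14.0 ± 9.39 CPM in TdTomato (SD, n = 4), above its control mean in the libraries labelled LATS KO, and did not pass the test (0.58 ± 0.75, adjusted p = 0.70). Its medians were 17.1 CPM in LATS_KO and 18.3 CPM in TdTomato, and those of Lats1 were 16.3 and 36.6 CPM. The TdTomato values of both genes reached down to 0 CPM, which lowers their control means. Neither gene therefore checks the label, which LATS_KO stands for throughout, since counts over a whole gene do not show a deletion of part of it. All 10 hepatocyte markers were detected in each group, with summed levels of 40202 to 170627 CPM (counts per 1e6 counts in genes, library sizes scaled by TMM) in LATS_KO, 76131 to 132646 CPM in YAP_OE and 95481 to 166840 CPM in TdTomato.

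All 10 genes passed the filter on low counts. Of the 10, 4 rose in LATS_KO relative to TdTomato, Il1a, Il1b, Il33 and Nlrp3 (edgeR), and none fell (0 at an unadjusted p under 0.05, and 0 with DESeq2). DESeq2 called 6 higher, these and Casp1 and Pycard. None of the 4 that edgeR called was called in an edgeR fit of the LATS_KO and TdTomato libraries alone. That fit called 0 genes of all those tested, with 5 of the 10 genes at an unadjusted p under 0.05. Across all 13055 genes tested, 1311 rose (10%) and 127 fell (0.973%). Il1a, Il1b, Il33 and Nlrp3 also rose in YAP_OE relative to TdTomato, where Il1rap fell (edgeR). There 2332 genes rose (17.9%) and 1412 fell (10.8%). The median log2 fold change of the 10 genes was 3.14 in LATS_KO and 2.86 in YAP_OE, beside 0.13 and 0.17 over all genes tested. Il1b, Nlrp3, Casp1 and Pycard had 5, 2, 13 and 7 counts in TdTomato. They passed the filter through LATS_KO and YAP_OE libraries and could hardly fall, so these medians follow in part from the filter. Both comparisons share the 4 TdTomato libraries. Macrophage markers rose in both groups as well, 11 of 12 in each, and in whole tissue more cells of a type cannot be told apart from more RNA per cell. Every YAP_OE library lay above every TdTomato library for 6 of the 10 genes and below them for 2, patterns found in 28.3% and 13.4% of all genes tested. Every LATS_KO library lay above every TdTomato library for 2 of the 10 genes (6.65% of all genes tested) and below them for none (1.90%). In the fit without LATS_KO 3 and TdTomato 1, 5 genes passed the test in LATS_KO, now with Casp1 (3.08, adjusted p = 0.017), and 8 in YAP_OE, now with Casp1, Pycard and Il18.

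**Figure D1:**
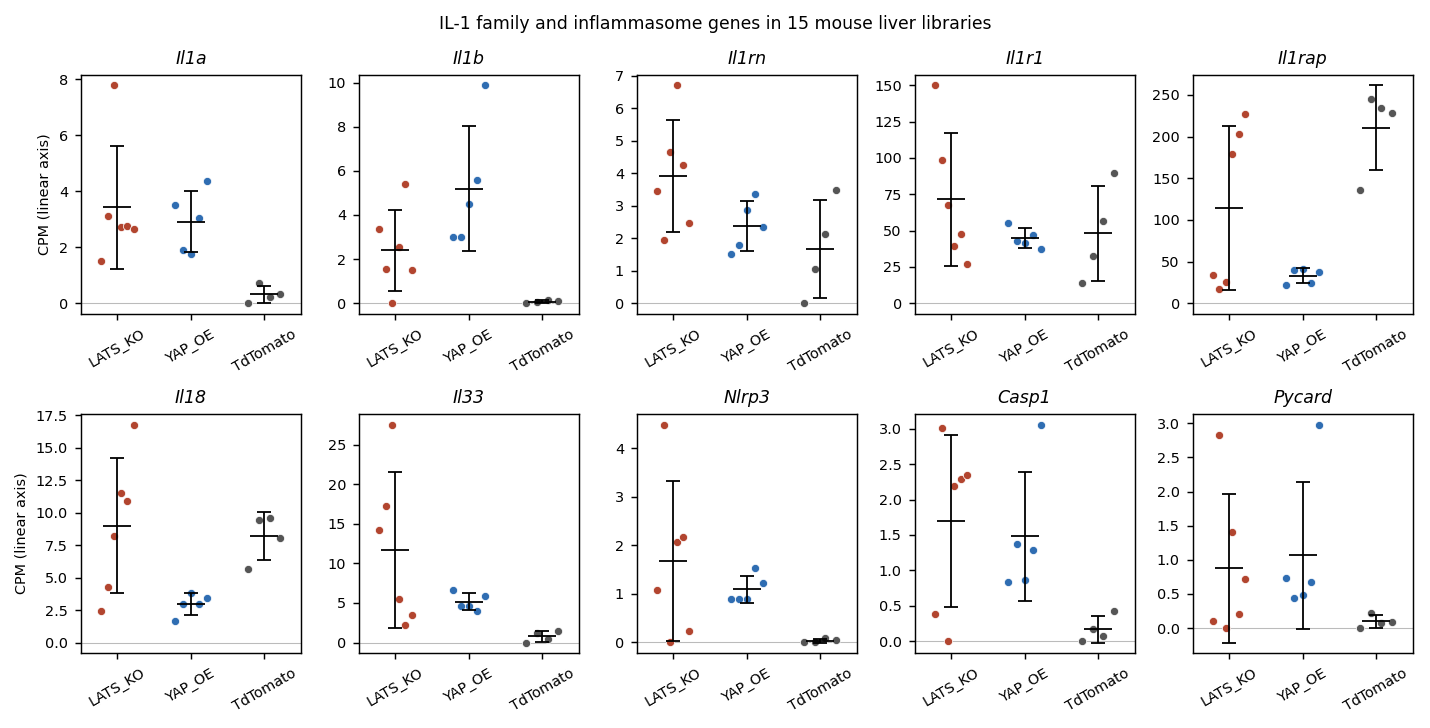
Level of each of the 10 genes in CPM on a linear axis, 1 point for each library, with the group mean and SD as a bar (n = 6 LATS_KO, 5 YAP_OE and 4 TdTomato). Il1rap and Il33 divide the LATS_KO libraries, with Il1rap at 17.0 to 33.7 CPM in LATS_KO 1 to 3 and at 179 to 227 CPM in LATS_KO 4 to 6.

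**Figure D2:**
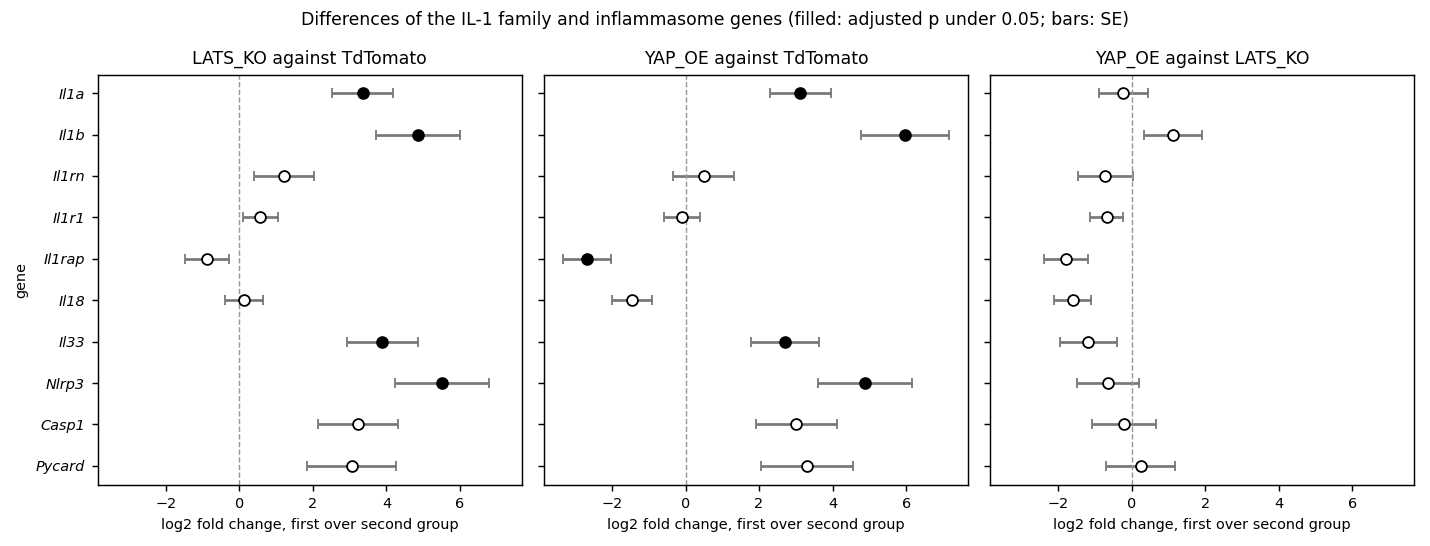
Log2 fold change of each gene with its SE (horizontal bars) in the 3 comparisons from 1 edgeR fit of 15 libraries, filled where the adjusted p is under 0.05. In LATS_KO 4 genes were called higher, in YAP_OE 4 higher and 1 lower, and none between YAP_OE and LATS_KO; the values of Nlrp3 and Il1b against TdTomato rest on 2 and 5 control counts and depend on the count that edgeR adds.

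Levels of different genes were compared as mean CPM per kilobase of exon (CPM/kb). In LATS_KO the order was Il1r1 (11.3 CPM/kb), Il1rap (10.04), Il18 (8.73), Il33 (4.04), Il1a (1.73), Il1b (1.25), Casp1 (1.14), Il1rn (0.707), Nlrp3 (0.412) and Pycard (0.231), and no neighbouring pair lay further apart than the larger SD of the pair over the 6 libraries. In YAP_OE Il1r1 (7.05 CPM/kb) stood above Il1rap (2.91) by more than that SD, and the genes after it did not separate from their neighbours, Il18 (2.87), Il1b (2.72), Il33 (1.79), Il1a (1.47), Casp1 (0.989), Il1rn (0.429), Pycard (0.280) and Nlrp3 (0.268). In TdTomato Il1rap (18.5 CPM/kb) stood above Il18 (7.94), with Il1r1 (7.56) close behind Il18. Il1r1 in turn stood above Il1rn (0.302). Then came Il33 (0.266), Il1a (0.163), Casp1 (0.113), Il1b (0.0406), Pycard (0.0260) and Nlrp3 (0.00784). From Il1rn on, no gene separated from its neighbour, and genes further apart in this order were not compared. The accessory receptor, IL-18 and the receptor thus led in control livers, where each of the other genes averaged at most 0.302 CPM/kb. A count of 0 allows a level of up to 0.0921 to 0.333 CPM, according to the library (3 counts, counting error only).

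Il1a (chromosome 2, 129299610 to 129309972, minus strand, mm10) and Il1b (chromosome 2, 129364570 to 129371139, minus strand) encode the agonists that act on IL-1R1, IL-1α within and at the surface of many cells and IL-1β as a secreted product, mainly of monocytes and macrophages. Their RefSeq promoter windows (GRCm38.p6, 250 bases before to 50 bases from the start, gene strand) are shown because these genes rose in both groups. Capitals mark matches to motifs searched on both strands, here TATAAA at −32 and TGACTCA, which fits the AP-1 letters TGANTCA, at −12 in Il1a (chr2:129309923-129310222), and TATAAA at −31 in Il1b (chr2:129371090-129371389).
Il1a: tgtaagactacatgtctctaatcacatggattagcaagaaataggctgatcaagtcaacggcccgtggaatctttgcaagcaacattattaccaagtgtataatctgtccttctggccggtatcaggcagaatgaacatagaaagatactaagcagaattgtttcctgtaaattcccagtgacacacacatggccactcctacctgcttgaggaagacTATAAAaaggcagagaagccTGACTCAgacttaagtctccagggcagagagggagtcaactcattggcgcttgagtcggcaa
Il1b: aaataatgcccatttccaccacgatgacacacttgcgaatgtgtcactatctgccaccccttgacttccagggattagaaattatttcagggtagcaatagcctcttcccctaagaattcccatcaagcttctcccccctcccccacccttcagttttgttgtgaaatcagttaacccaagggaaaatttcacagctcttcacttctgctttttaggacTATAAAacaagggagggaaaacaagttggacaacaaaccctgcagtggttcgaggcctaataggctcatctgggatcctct

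Il1a had between 1.51 and 7.77 CPM in the 6 LATS_KO libraries, with a median of 2.74 CPM. The 5 YAP_OE libraries had 3.51, 1.89, 1.76, 3.04 and 4.35 CPM, and the TdTomato libraries 0, 0.717, 0.238 and 0.335 CPM. Every LATS_KO and every YAP_OE library lay above every TdTomato library. Il1a rose by 3.35 ± 0.83 (SE) on the log2 scale in LATS_KO (adjusted p = 0.020, edgeR) and by 3.12 ± 0.84 in YAP_OE (adjusted p = 0.013). Without LATS_KO 3 and TdTomato 1 the LATS_KO value was 2.54 (adjusted p = 0.0052), and without TdTomato 2 it was 4.07 (adjusted p = 0.034) in LATS_KO and 3.84 (adjusted p = 0.018) in YAP_OE. The call in LATS_KO was lost in the column counted without regard to strand (2.58, adjusted p = 0.12), and Gm14023 overlaps Il1a on the opposite strand.

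Il1b had 3.35, 1.56, 0, 2.54, 5.39 and 1.50 CPM in LATS_KO 1 to 6. It had 3.01, 3.00, 4.49, 5.61 and 9.87 CPM in YAP_OE 1 to 5, against 0, 0.0551, 0.159 and 0.0957 CPM in the TdTomato libraries. The TdTomato values come from 5 counts in all, and 5 of 6 LATS_KO libraries and 5 of 5 YAP_OE libraries lay above the highest of them. The log2 fold change was 4.85 ± 1.13 in LATS_KO (adjusted p = 0.015, edgeR) and 5.97 ± 1.19 in YAP_OE (adjusted p = 0.0038). Pooled over libraries, the CPM ratio was 31.1 in LATS_KO (exact 95% interval 13.2 to 96.7, counting error only) and 65.4 in YAP_OE (27.9 to 202). Of the counts of both agonists, Il1b held 42.2% ± 25.4 in LATS_KO (SD, n = 6), 62.7% ± 10.1 in YAP_OE (SD, n = 5) and 23.1% ± 16.4 in the 3 TdTomato libraries with any such counts, as a description chosen after the values were seen.

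Il33 (chromosome 19, 29925114 to 29960718, plus strand) encodes the alarmin IL-33, which in liver acts on innate lymphoid and regulatory T cells. Its RefSeq entries have 2 starts, and both windows hold 1 match to CATTCC, the letters bound by TEAD factors, at −131 and −107, read on the minus strand as GGAATG in the first window. The downstream window (chr19:29945540-29945839) is printed because it also holds a C/EBP match (TTGCNNAA, at −85) and TATAAA at −29, all in capitals.
Il33: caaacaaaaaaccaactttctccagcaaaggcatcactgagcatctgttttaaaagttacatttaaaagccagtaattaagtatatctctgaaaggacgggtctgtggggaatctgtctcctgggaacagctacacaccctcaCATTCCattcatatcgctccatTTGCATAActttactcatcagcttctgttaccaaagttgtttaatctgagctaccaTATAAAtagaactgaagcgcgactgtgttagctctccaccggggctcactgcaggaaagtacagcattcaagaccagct

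Il33 had 14.2, 17.2, 27.5, 5.52, 2.16 and 3.42 CPM in LATS_KO 1 to 6. The YAP_OE libraries had 6.58, 4.55, 4.67, 4.04 and 5.92 CPM, and the TdTomato libraries 0, 1.16, 0.476 and 1.44 CPM. LATS_KO 1 to 3 lay above every other library, and the lowest LATS_KO library still lay above the highest TdTomato library. Il33 rose by 3.89 ± 0.96 on the log2 scale in LATS_KO (adjusted p = 0.019, edgeR), and by 3.03 without LATS_KO 3 and TdTomato 1 (adjusted p = 0.011). It rose by 2.71 ± 0.92 in YAP_OE (adjusted p = 0.038), a call lost without any 1 of TdTomato 2, 3 and 4 or of the 5 YAP_OE libraries (adjusted p between 0.050 and 0.095) and held at 2.30 without LATS_KO 3 and TdTomato 1 (adjusted p = 0.013).

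Il18 (chromosome 9, 50554827 to 50581840, plus strand) encodes IL-18, a precursor held in many resting cells that induces interferon gamma once cut. It had 2.43, 4.27, 8.22, 11.5, 10.9 and 16.8 CPM in LATS_KO 1 to 6. YAP_OE had 1.66, 3.00, 3.81, 2.93 and 3.41 CPM, against 5.65, 9.43, 9.61 and 8.04 CPM in TdTomato. Each YAP_OE library lay below every TdTomato library, while the LATS_KO libraries lay on both sides of them. Neither difference passed the test, with log2 fold changes of 0.14 ± 0.52 in LATS_KO (adjusted p = 0.91, edgeR) and −1.46 ± 0.54 in YAP_OE (adjusted p = 0.053). Without LATS_KO 3 and TdTomato 1, Il18 was lower in YAP_OE (−1.61, adjusted p = 0.016). Il18bp, which encodes the soluble protein that traps IL-18, had a median of 10.8 CPM in LATS_KO (6.22 to 16.8) and 8.89 CPM in YAP_OE (6.11 to 15.8), against 3.05 CPM in TdTomato (0 to 3.88). Its log2 fold changes of 2.12 ± 0.79 and 1.89 ± 0.80 did not pass the test (adjusted p = 0.098 and 0.089). Of the counts of Il18 and Il18bp together, Il18 held 43.2% ± 17.6 in LATS_KO (SD, n = 6), 25.5% ± 9.10 in YAP_OE (SD, n = 5) and 79.9% ± 14.4 in TdTomato (SD, n = 4). TdTomato 1, with no Il18bp count, stood at 100%, and TdTomato 2 to 4 at 79.9%, 72.0% and 67.5%. The exact 95% interval of LATS_KO 6, 59.9% to 69.1%, overlaps that of TdTomato 4, 61.3% to 73.3%. This share has no test.

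Il1rn (chromosome 2, 24336853 to 24351494, plus strand), the gene of the receptor antagonist, did not pass the test in either group. It had between 1.93 and 6.71 CPM in LATS_KO with a median of 3.85 CPM, and 1.51, 1.78, 2.88, 3.36 and 2.35 CPM in YAP_OE. The TdTomato libraries had 0, 1.05, 2.14 and 3.49 CPM, so that the groups overlapped. The log2 fold change was 1.22 ± 0.82 in LATS_KO (adjusted p = 0.40, edgeR) and 0.50 ± 0.83 in YAP_OE (adjusted p = 0.70). Of the counts of Il1rn, Il1a and Il1b together, Il1rn held 29.2% to 56.0% in LATS_KO (mean 39.3% ± 9.18, SD, n = 6), 14.2% to 31.6% in YAP_OE (23.8% ± 7.13, SD, n = 5) and 57.6%, 84.4% and 89.0% in TdTomato 2 to 4 (77.0% ± 17.0, SD, n = 3). TdTomato 1 had no count of the 3 genes. The exact 95% interval of TdTomato 2, 39.2% to 74.5% of 33 counts, reaches into the LATS_KO range, and the share was chosen after the values were seen and has no test.

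**Figure D3:**
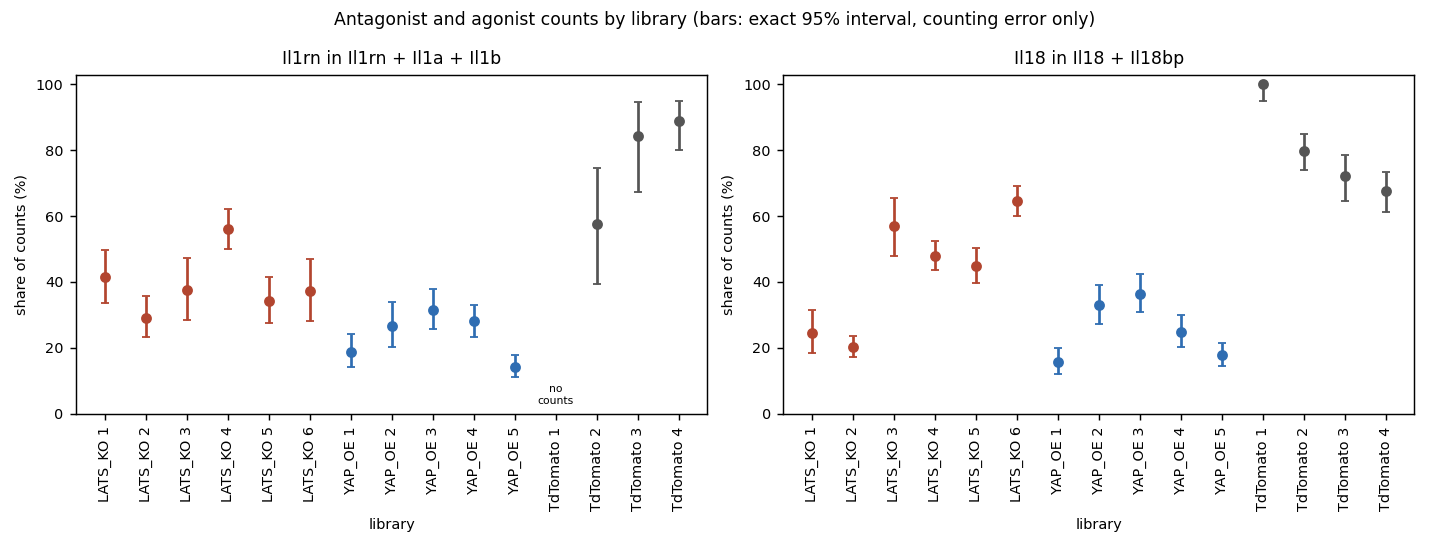
Share of counts in each library, in percent, with the exact 95% binomial interval, which covers counting error only: on the left Il1rn in the sum of Il1rn, Il1a and Il1b, on the right Il18 in the sum of Il18 and Il18bp. YAP_OE libraries hold 14.2% to 31.6% Il1rn and TdTomato libraries with counts 57.6% to 89.0%.

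Il1r1 (chromosome 1, 40225080 to 40317257, plus strand), the signalling receptor, did not pass the test in either group. It had 150, 98.4, 67.8, 39.2, 47.9 and 26.9 CPM in LATS_KO 1 to 6, and 55.2, 43.1, 41.6, 47.0 and 37.2 CPM in YAP_OE. The TdTomato libraries spanned 14.0, 32.3, 56.8 and 89.3 CPM, a range that held every YAP_OE library and 4 of 6 LATS_KO libraries. The log2 fold change was 0.58 ± 0.48 in LATS_KO (adjusted p = 0.51, edgeR) and −0.10 ± 0.49 in YAP_OE (adjusted p = 0.91), and the sign of the YAP_OE value turned with another scaling of the libraries (0.10).

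Il1rap (chromosome 16, 26581704 to 26730117, plus strand) encodes the accessory protein that the IL-1 and IL-33 receptors share, and the liver is known to secrete a soluble form of it. Its window (chr16:26581455-26581754) is shown as the contrast to the promoters above, since it held no match to any of the 5 motifs searched and 72.0% of its bases were G or C, against 44.7% in Il1a, 45.7% in Il1b and 42.3% in the Il33 window. The lack of matches is not particular to Il1rap. The Casp1 window and the 2 Nlrp3 windows held none either, and Nlrp3 rose in both groups.
Il1rap: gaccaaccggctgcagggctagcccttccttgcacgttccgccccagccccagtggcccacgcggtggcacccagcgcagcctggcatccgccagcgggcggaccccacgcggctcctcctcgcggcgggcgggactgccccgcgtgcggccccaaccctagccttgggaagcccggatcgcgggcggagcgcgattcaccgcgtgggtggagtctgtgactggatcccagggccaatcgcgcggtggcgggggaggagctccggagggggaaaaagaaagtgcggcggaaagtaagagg

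Il1rap had 33.7, 17.0, 25.4, 179, 203 and 227 CPM in LATS_KO 1 to 6. YAP_OE had 22.0, 39.7, 41.6, 24.7 and 37.3 CPM, and TdTomato had 135, 245, 234 and 228 CPM. LATS_KO 1 and 3 lay within the YAP_OE range and LATS_KO 2 below it. LATS_KO 4 to 6 lay within the TdTomato range only through TdTomato 1, a library of mostly unmapped reads, and below each of TdTomato 2 to 4. Il1rap fell by 2.67 ± 0.65 on the log2 scale in YAP_OE (adjusted p = 0.0088, edgeR), and did so in all 23 alternative fits, with log2 fold changes of −2.83 to −2.50. In LATS_KO it did not pass the test (−0.88 ± 0.60, adjusted p = 0.40). Of the counts of Il1rap and Il1r1 together, Il1rap held 18.4%, 14.8%, 27.3%, 82.0%, 80.9% and 89.4% in LATS_KO 1 to 6, 28.5% to 50.1% in YAP_OE and 71.8% to 90.6% in TdTomato.

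The inflammasome core was scarcely counted in control liver. Nlrp3 (chromosome 11, 59541568 to 59566956, plus strand), the sensor, had 1.08, 4.48, 0, 2.06, 2.16 and 0.240 CPM in LATS_KO 1 to 6. The YAP_OE libraries had 0.892, 0.889, 0.897, 1.54 and 1.21 CPM, and the TdTomato libraries 0, 0, 0.0794 and 0.0479 CPM, which are 2 counts in all. Nlrp3 was higher in LATS_KO by a pooled CPM ratio of 70.3 (exact 95% interval 19.2 to 583) and in YAP_OE by 34.9 (9.49 to 291), with adjusted p = 0.014 and 0.012 (edgeR). The LATS_KO ratio was 40.6 without LATS_KO 2 and 113 without TdTomato 3, and the YAP_OE ratio was 56.1 without TdTomato 3. Every YAP_OE library and 5 of 6 LATS_KO libraries lay above the highest TdTomato library.

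Casp1 (chromosome 9, 5298517 to 5307265, plus strand), the protease, had 0.379, 3.01, 0, 2.19, 2.29 and 2.34 CPM in LATS_KO 1 to 6. It had 0.830, 1.37, 0.860, 1.29 and 3.06 CPM in YAP_OE, against 0, 0.165, 0.0794 and 0.431 CPM in TdTomato. The log2 fold changes of 3.23 ± 1.09 in LATS_KO and 3.01 ± 1.10 in YAP_OE did not pass the test (adjusted p = 0.071 and 0.051, edgeR), although each YAP_OE library lay above each TdTomato library. Pycard (chromosome 7, 127989708 to 127993867, minus strand), the adaptor, had 0.108, 2.82, 0, 1.40, 0.202 and 0.721 CPM in LATS_KO 1 to 6. It had 0.738, 0.444, 0.486, 0.679 and 2.98 CPM in YAP_OE, against 0, 0.221, 0.0794 and 0.0957 CPM in TdTomato, where 7 counts were seen in all. Its log2 fold changes were 3.05 ± 1.21 in LATS_KO (adjusted p = 0.12) and 3.30 ± 1.24 in YAP_OE (adjusted p = 0.058). Both genes passed the test in YAP_OE without LATS_KO 3 and TdTomato 1, Casp1 at 2.61 (adjusted p = 0.013) and Pycard at 2.93 (adjusted p = 0.048). In LATS_KO DESeq2 called both higher.

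Among 21 other inflammasome genes, 16 could be tested, of which 5 rose and none fell in LATS_KO, with a median log2 fold change of 0.95 beside 0.13 over all genes tested. The rises were Aim2, Mefv, Naip5, Casp4 and Panx1. Each of these had at most 4 counts in TdTomato and passed the filter through the other groups. Such genes could hardly fall, so the tally and the median follow in part from the filter. Aim2, a sensor of DNA in the cytosol, had no count in TdTomato. With TdTomato set at a floor of 3 counts over its libraries, Aim2 was 27.3-fold higher in LATS_KO and 16.5-fold higher in YAP_OE. The exact 95% lower limits were 21.9 and 13.2 (counting error only). LATS_KO 2 held 74 of the 145 counts in LATS_KO, and without it the fold was 18.7. Mefv, which encodes the sensor pyrin, likewise had no count in TdTomato. Against the same floor it was 22.0-fold higher in LATS_KO (exact 95% lower limit 17.6), where LATS_KO 2 held 79 of its 117 counts. Without that library the fold was 9.99 (lower limit 7.74). Naip5, a receptor for bacterial flagellin with near-identical relatives among which reads may be split, had a CPM ratio of 66.2 in LATS_KO (exact 95% interval 22.5 to 323). It had 1.24, 7.09, 0, 2.94, 1.48 and 0.540 CPM in LATS_KO 1 to 6 against 3 counts in TdTomato, all in TdTomato 2, and the ratio was 31.8 without LATS_KO 2 (10.6 to 156). The call of Aim2 held without any 1 library, while those of Mefv and Naip5 were each lost without 2 of the TdTomato libraries, and those of Casp4 and Panx1 were each lost in 11 of 15 fits with 1 library left out (adjusted p between 0.052 and 0.12). In YAP_OE 5 genes of the list rose and 3 fell, with a median of 1.42 beside 0.17 over all genes. The filter tilts this median in the same way. Panx1, a membrane channel that releases ATP, had 2.51 to 5.29 CPM in YAP_OE and 0 to 0.110 CPM in TdTomato, a ratio of 79.7 (27.1 to 388), and of 172 without TdTomato 2, which held 2 of the 3 control counts. The genes that fell were Nlrp12, Nlrp6 and Gsdmd. Nlrp6, a sensor of the same family as NLRP3, had 22.3, 14.3, 12.2, 196, 174 and 169 CPM in LATS_KO 1 to 6, 25.7 to 54.1 CPM in YAP_OE and 66.6 to 268 CPM in TdTomato (YAP_OE log2 fold change −2.10 ± 0.75, adjusted p = 0.046, a call lost in 8 of 15 fits with 1 library left out), so that the LATS_KO libraries divided as they did for Il1rap. Nlrp12, a NOD-like receptor known for damping inflammation, had 0.523 to 2.94 CPM in YAP_OE and 14.6 to 42.5 CPM in TdTomato (−4.16 ± 1.05, adjusted p = 0.010). It had 7.19, 1.60, 0, 28.2, 25.5 and 22.2 CPM in LATS_KO 1 to 6, divided at the same libraries, and did not pass the test there (−1.12 ± 0.91, adjusted p = 0.49). Gsdmd, which encodes the pore that caspase-1 opens, and Nlrp6 were named after their values were seen. Gsdmd had 27.9 to 31.5 CPM in YAP_OE and 38.0 to 51.1 CPM in TdTomato (−0.59 ± 0.17, adjusted p = 0.017, and 0.059 without TdTomato 4).

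Of 20 genes of IL-1 receptor signalling, all could be tested. None passed the test in LATS_KO (edgeR, with 1 at an unadjusted p under 0.05 and 1 with DESeq2), where their median was 0.05 beside 0.13 over all genes. In YAP_OE 1 rose and 2 fell, with a median of −0.26 beside 0.17. Tnfaip3, which encodes the NF-κB inhibitor A20, had 26.6 to 42.8 CPM in YAP_OE and 0 to 9.86 CPM in TdTomato (3.15 ± 1.07, adjusted p = 0.039). Its LATS_KO libraries had 50.3, 36.5, 59.3, 6.14, 4.52 and 2.70 CPM, divided at the same libraries as Il33 (2.84 ± 1.04, adjusted p = 0.094). Chuk and Ikbkb, the kinases that release NF-κB, fell in YAP_OE by 1.31 ± 0.29 (adjusted p = 0.0061) and by 0.71 ± 0.22 (adjusted p = 0.027). With 1 library left out the YAP_OE call of Chuk held in 15 of 15 fits, and those of Tnfaip3 and Ikbkb were lost in 7 and 6 (adjusted p between 0.050 and 0.095). Of 12 other IL-1 family ligands and receptors only Il18bp and Sigirr, a receptor that damps IL-1 signalling, passed the filter on low counts, and neither passed the test with edgeR (Sigirr adjusted p = 0.78 in LATS_KO and 0.93 in YAP_OE). In each group 1 of them, Il18bp, had an unadjusted p under 0.05 and was called higher by DESeq2.

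Between YAP_OE and LATS_KO no member of the family passed the test, and only 65 genes were higher (0.498%) and 64 lower (0.490%) among all genes tested. At an unadjusted p under 0.05 there were 2 members, Il1rap and Il18, both lower in YAP_OE. Il1rap averaged 33.1 ± 9.05 CPM in YAP_OE (SD, n = 5) and 114 ± 98.5 CPM in LATS_KO (SD, n = 6), a log2 fold change of −1.79 ± 0.60 (adjusted p = 0.17, edgeR). Il18 averaged 2.96 ± 0.81 CPM in YAP_OE and 9.0 ± 5.21 CPM in LATS_KO, a log2 fold change of −1.60 ± 0.51 (adjusted p = 0.15). DESeq2 called Il18 alone, and both passed the test without LATS_KO 3 and TdTomato 1 (−1.99, adjusted p = 0.040, and −1.63, adjusted p = 0.032). The largest difference in the other direction was that of Il1b, 1.11 ± 0.79 (adjusted p = 0.60). None of the genes in the 3 lists of other pathway members passed the test between these groups (edgeR). Among other inflammasome genes 2 had an unadjusted p under 0.05 and DESeq2 called 1 lower, and among genes of IL-1 receptor signalling 3 had such a p and DESeq2 called 2 lower.

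Markers of other liver cells also differed between the groups. Of 12 macrophage markers, 11 rose in LATS_KO and 11 in YAP_OE, and their summed level was 257 to 1339 CPM in LATS_KO, 375 to 817 CPM in YAP_OE and 26.4 to 64.7 CPM in TdTomato. Of 10 monocyte markers, 8 were tested, of which 7 rose in LATS_KO and 6 in YAP_OE, with sums of 41.8 to 507 CPM in LATS_KO, 189 to 267 CPM in YAP_OE and 3.09 to 18.3 CPM in TdTomato, where Chil3 had no count. Kupffer cell markers (9 tested, 7 higher in LATS_KO, 5 higher and 1 lower in YAP_OE) summed to 148 to 771 CPM in LATS_KO, 333 to 638 CPM in YAP_OE and 181 to 240 CPM in TdTomato. Neutrophil markers summed to 2.22 to 27.3 CPM in LATS_KO, 1.41 to 5.76 CPM in YAP_OE and 0.165 to 2.40 CPM in TdTomato.

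Set against the macrophage sum of the same library, Il1b had 0.737 to 1.21 CPM per 100 CPM of macrophage markers in YAP_OE, and 1.28, 0.117, 0, 0.498, 1.26 and 0.584 in LATS_KO 1 to 6. The TdTomato libraries had 0, 0.170, 0.300 and 0.148, so every YAP_OE library lay above them also on this scale, with the control values resting on 5 counts. In TdTomato 1 the count of 0 allows up to 0.232 CPM beside a macrophage sum of 26.4 CPM, which on this scale reaches into the YAP_OE range. Casp1 had 0.203 to 0.374 CPM per 100 CPM of macrophage markers in YAP_OE, 0 to 0.911 in LATS_KO and 0 to 0.665 in TdTomato, and Il1a had 0.427 to 0.858 in YAP_OE, 0.234 to 2.36 in LATS_KO and 0 to 2.21 in TdTomato, ranges that overlapped. The ranges of Nlrp3 overlapped as well, at 0.149 to 0.268 in YAP_OE, 0 to 0.504 in LATS_KO and 0 to 0.150 in TdTomato. So did those of Pycard, at 0.118 to 0.364 in YAP_OE, 0 to 0.280 in LATS_KO and 0 to 0.680 in TdTomato. Whether cell numbers set the level of any of these genes was not tested.

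The division among the LATS_KO libraries that Il1rap, Il33 and Tnfaip3 share also ran through the cholangiocyte markers. Their summed level was 4441, 1971 and 1349 CPM in LATS_KO 1 to 3 and 217, 109 and 145 CPM in LATS_KO 4 to 6, against 3789 to 6271 CPM in YAP_OE and 45.3 to 61.4 CPM in TdTomato, where Cftr and Cldn4 had no count. The macrophage sums did not divide there, at 262, 1339, 329, 511, 428 and 257 CPM in LATS_KO 1 to 6. The hepatocyte sums did, at 40202 to 88093 CPM in LATS_KO 1 to 3 and 145129 to 170627 CPM in LATS_KO 4 to 6. Monocyte and neutrophil sums were also higher in each of LATS_KO 1 to 3 than in any of LATS_KO 4 to 6, and endothelial sums were lower. Among the members, Il1r1 (higher in LATS_KO 1 to 3) and Il18 (lower there) divided at the same libraries. Among hepatocyte markers, none of 9 tested passed the test in LATS_KO (edgeR, with 2 at an unadjusted p under 0.05 and 1 lower with DESeq2) and 5 fell in YAP_OE. The part of these cell types in the levels of Il1rap and Il33 was not tested.

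**Figure D4:**
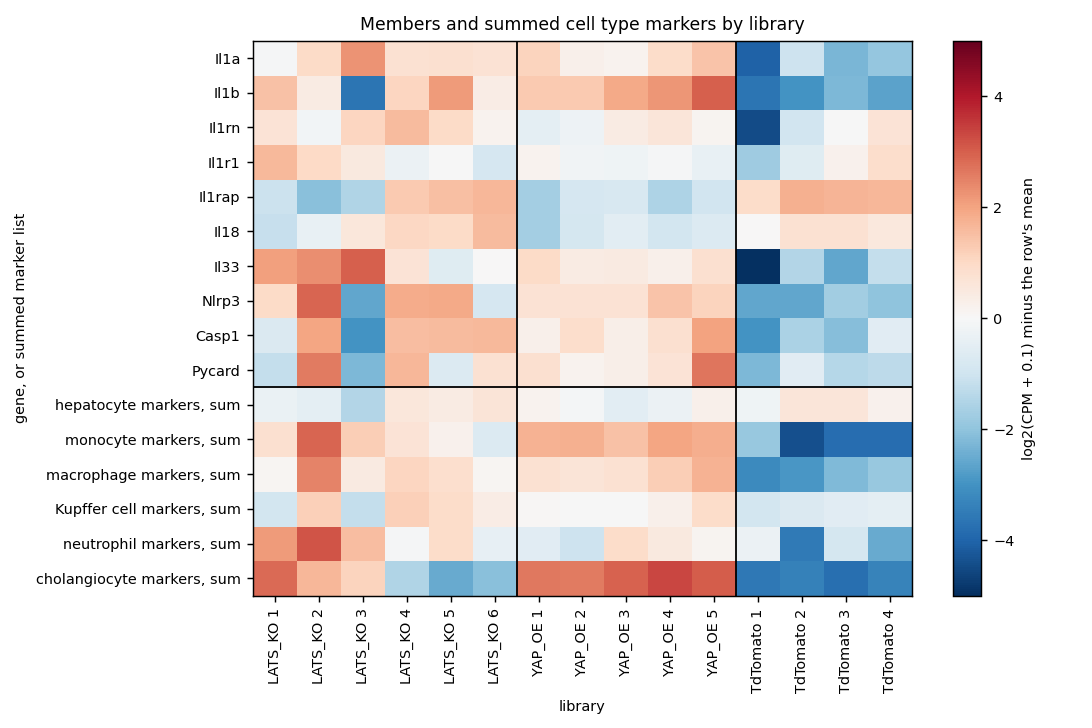
Colour map of the 10 genes and of 6 summed marker lists (rows) in the 15 libraries (columns), as log2(CPM + 0.1) minus the mean of the row, red above and blue below that mean, with black lines between LATS_KO, YAP_OE and TdTomato and between genes and lists. The cholangiocyte row and Il33 are high and Il1rap is low in LATS_KO 1 to 3, and the macrophage row is high in all LATS_KO and YAP_OE libraries.

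For each member, the 2 genes with the most similar pattern were sought by the root mean square difference of log2 CPM, each gene set to its own mean, over the 15 libraries and 11464 genes with a mean of at least 1 CPM. Of the members, Il1rap had the closest neighbours, Phyh (0.160) and Hacl1 (0.177), beside its own spread of 1.45 about its mean. Nlrp3 lay nearest to Trpv2 (0.385) and Slc8a1 (0.486), beside a spread of 1.85. Il1b lay nearest to Ctla2a (0.662) and Rhoj (0.709), beside 2.29, and Il33 to Mthfd1l (0.466) and Bora (0.490), beside 1.98. Il1a lay nearest to Cacna1a (0.477) and Eva1b (0.530), Casp1 to Il16 (0.459) and Pilrb1 (0.542), and Il18 to Lactb (0.404) and Amy1 (0.436). Il1r1 lay nearest to Il6ra (0.371) and Spg20 (0.409), and Il1rn to Mrm1 (0.530) and Tmem50b (0.534). Within the family the nearest pair was Casp1 and Pycard (0.860), and Pycard itself was below 1 CPM.

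All 10 genes matched RefSeq promoter entries, with 15 windows in all. CATTCC was found in windows of 3 genes (Il1rn, Il1r1 and Il33) and in 14.7% of the 32851 windows of the table. TGANTCA was found in 2 genes (Il1a and Il1rn) and in 7.81% of windows, and TTGCNNAA in 3 genes (Il1r1, Il33 and Pycard) and in 10.8%. GGGANTTTC, letters of the NF-κB site, was found in none of the 10 genes and in 1.11% of windows. TATAAA was found in 5 genes (Il1a, Il1b, Il1rn, Il18 and Il33) and in 13.6% of windows, and stood 29 to 32 bases before the start in Il1a, Il1b and the downstream Il33 window. The percentages count windows, and a gene can have several. Of the 15 windows of the members, 4 held CATTCC, 2 TGANTCA, 3 TTGCNNAA, 0 GGGANTTTC and 6 TATAAA. A match describes these letters only.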

How the data were processed

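Poly(A) RNA of mouse liver was made into directional libraries, per the labels' protocols. The authors deposited raw whole-number counts per gene from STAR. The submitters' processing notes name FastQC, Trimmomatic, STAR and the mm10 build, with versions not given in the sources used here. The reverse-strand count column was used, because the forward column held 0.966% to 1.99% of strand-assigned counts. Lines that name no gene held 14.2% to 92.5% of reads and stayed out of library sizes and tests.

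CPM values were computed from the deposited counts with TMM-scaled library sizes. Genes kept by filterByExpr were tested in 1 fit of 15 libraries with only a group term (edgeR 4.0.16, R 4.3.3, quasi-likelihood, robust, 12 residual degrees of freedom, two-sided, Benjamini-Hochberg adjustment over all 13055 genes, threshold 0.05). SE is the absolute log2 fold change over the root of F. A fold against a group at 0 uses a floor of 3 counts over that group. Alternatives were RLE factors, DESeq2 1.42.0, other filters, the unstranded column, replicate number as a block, a fit of just the groups compared, and left-out libraries. The procedure was tested on simulated data. Coordinates and exon lengths come from GENCODE M21, sequences from RefSeq. The named genes were all 10 members and up to 3 genes of each pathway list with the smallest adjusted p in a comparison. The members and lists were chosen with earlier results of these data known. All replicate pairs differed by more than sampling noise. Beside the hepatocyte, myeloid and cholangiocyte lists, the marker lists covered endothelial, stellate, T and NK, and B cells, which are summarised at the end of the closing section. The level of 1 cholangiocyte marker is not reported here by name.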

Additional observations from a re-analysis of the deposited data

Results flagged for a closer look

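Among the 30 sets of values formed by the 10 genes in 3 groups, 4 had a library that stood apart from the rest of its group, and chance flags about 1 in 20. Il1a was at 7.77 CPM in LATS_KO 3, against 1.51 to 3.13 CPM in the other LATS_KO libraries. Il1rap was at 135 CPM in TdTomato 1, against 228 to 245 CPM in the other TdTomato libraries. Both of these libraries were mostly unmapped reads. Casp1 was at 3.06 CPM in YAP_OE 5, against 0.830 to 1.37 CPM in the other YAP_OE libraries, and Pycard was at 2.98 CPM there, against 0.444 to 0.738 CPM. The same library had the highest macrophage marker sum of its group (817 CPM) and the highest Il1b (9.87 CPM).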

How the results depend on the processing

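In LATS_KO the count of called members, 4, became 6 with DESeq2, which added Casp1 and Pycard. It stayed at 4 in the unstranded column, with Pycard in place of Il1a. The count was 0 in a fit of only the groups compared (5 at an unadjusted p under 0.05, where also 0 of all genes were called and 2494 had such a p) and 1 to 5 with 1 library left out. The low end came without TdTomato 2 (1, Il1a), TdTomato 3 (2) and TdTomato 4 (2). Over all genes the count of 1438 became 2894 with DESeq2, 2223 without LATS_KO 3 and TdTomato 1, and 605 to 1808 with 1 library left out. In YAP_OE the count of 5 members became 8 with DESeq2, in the fit of only the groups compared and without LATS_KO 3 and TdTomato 1, and 4 to 8 with 1 library left out. Over all genes 3744 became 6333 without those 2 libraries. Between YAP_OE and LATS_KO the count of 0 members became 1 with DESeq2 and 2 without those libraries, and stayed at 0 with any 1 library left out (2 at an unadjusted p under 0.05 with all libraries). Over all genes 129 became 779, 1678 and 36 to 389. Deviations of same-numbered libraries from their group means had correlations of −0.25 to 0.23. For YAP_OE 3 and YAP_OE 4 the most similar TdTomato library was that of the same number. Such correlations cannot exclude a shared batch, and the labels name none. With the replicate number as a block, 0 members were called in LATS_KO (6 at an unadjusted p under 0.05), Il33 was not called in YAP_OE, and 740 genes in LATS_KO and 13 between YAP_OE and LATS_KO.

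Signs turned only for values that no fit called. Il18 in LATS_KO was −0.42 with the block and −0.14 to 0.33 with 1 library left out. Il1r1 in YAP_OE was 0.10 with RLE factors and with DESeq2, 0.031 with the block and −0.41 to 0.38 with 1 left out. Between YAP_OE and LATS_KO, Il1a was 0.34 in the unstranded column, 0.19 without LATS_KO 3 and TdTomato 1 and −0.41 to 0.19 with 1 left out. Casp1 was 0.48 with the block and −0.65 to 0.027 with 1 left out. Pycard was −0.37 in the unstranded column, −0.022 without those 2 libraries and −0.61 to 1.07 with 1 left out. The causes were not tested. RLE factors moved the median of all genes in YAP_OE by 0.18. Of 687 repeated member values, 618 kept their sign and their side of the threshold. Nlrp3 in LATS_KO was 4.92 without LATS_KO 2 and 6.14 without TdTomato 3, and in YAP_OE 5.5 without TdTomato 3. The LATS_KO calls of Il1b, Il33 and Nlrp3 were lost without TdTomato 2 (adjusted p = 0.056, 0.052 and 0.053), that of Il1b without TdTomato 4 (0.050), that of Il33 without TdTomato 3 (0.063), and that of Il1a without TdTomato 3 or 4 (0.064 and 0.062). Depth limits Nlrp3, Pycard and Il1b most, with 2, 7 and 5 counts in TdTomato. Leaving out single libraries for the pathway lists and for the ratios against few control counts was added after the data were seen.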

Other observations

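Il1r2, which encodes a decoy receptor that binds IL-1 without signalling, did not pass the filter on low counts and was looked at after its values were seen. It had 1.30, 3.07, 22.3, 0.0877, 0 and 0.240 CPM in LATS_KO 1 to 6, with the highest value in the library with mostly unmapped reads. It had 4 counts in all YAP_OE libraries together and 1 count in all TdTomato libraries together. Il1f6, Il1f8 and Il1f5, which encode IL-36α, IL-36β and the IL-36 receptor antagonist, had 0 counts in all 15 libraries.

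Endothelial markers (10 tested) were higher for 3 genes in LATS_KO and 3 in YAP_OE, with sums of 41.3 to 338 CPM in LATS_KO, 130 to 214 CPM in YAP_OE and 21.6 to 61.9 CPM in TdTomato. Stellate markers (10 tested) were higher for 3 genes in LATS_KO and 9 in YAP_OE, with sums of 0 to 21.2 CPM in LATS_KO, 22.8 to 159 CPM in YAP_OE and 0.0774 to 11.8 CPM in TdTomato. T and NK cell markers summed to at most 1.81 CPM in LATS_KO, 0.823 CPM in YAP_OE and 2.59 CPM in TdTomato, and B cell markers to at most 0.767, 0.750 and 0.287 CPM.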
